A study of Drosophila melanogaster with 6 samples.

Results

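Brain cells that held *kn* transcripts together with transcripts of *hui*, *Sox21b* or *D* were examined in single-cell RNA sequencing libraries of *Drosophila* brains. A cell belonged to this population when its barcode had at least 200 genes, at most 10% of its unique molecular identifiers (UMIs, each counting 1 captured transcript) in mitochondrially encoded protein genes, at least 1 UMI of *kn*, and at least 1 UMI of any of the other genes. Of 67362 barcodes in 6 libraries, 25189 passed the limits on genes and mitochondrial UMIs, and 688 of these were members. The first group, Control, was w1118. The second group, Appl-, was Appl[d] w[*], in which a synthetic deletion removes the central portion of the X-linked gene *Appl*, the single fly ortholog of the mammalian amyloid precursor protein genes. Each genotype had 3 libraries from brains of flies aged 10 days, and each library pooled 20 male and 20 female brains. The genotypes are separate stocks, so the deletion and any other difference between the stocks cannot be told apart.

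*kn* (knot, also called collier) encodes the only fly member of the COE (EBF) family of transcription factors. It is known for setting the identity of neurons, among them class IV dendritic arborization sensory neurons and peptidergic neurons of the ventral nerve cord, and for roles in blood cell and wing development. *Sox21b* and *D* (Dichaete) encode HMG-box transcription factors of the SoxB group, which act in neural progenitors and in subsets of differentiated neurons. *hui* is a protein-coding gene that lies next to *kn* on chromosome arm 2R, on the opposite strand. *Sox21b* and *D* lie close together on arm 3L, on the same strand, with the noncoding gene *lncRNA:CR45887* between them.

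The Control libraries gave 114, 108 and 129 members and the Appl- libraries gave 104, 171 and 62. Members had a median of 3283, 2675 and 2320 UMIs in the Control libraries and of 2470, 2246 and 2007 in the Appl- libraries. The other kept cells had medians of 2307 to 3177 over the libraries, and members were deeper than the other cells in Control replicate 1 only. Control replicate 1 stood apart, with 29008 barcodes of which 4444 were kept, and values that rest on it are given with and without it. Of the members, 3 had a barcode sequence that also occurred in another library, in no case that of another member. Scrublet, a doublet caller, marked 4 of 25189 cells, too few for it to have worked, so doublets were not removed.

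Members carried the markers of neurons. *nSyb*, a synaptic vesicle protein, was detected in 97.1% of members, *Syt1* in 95.5%, *para* in 94.2%, *brp* in 86.9% and *elav* in 76.9%. The summed level of the 6 neuronal markers ran from 8681 to 9773 counts per 1000000 UMIs (CPM) in Control members and from 8066 to 10133 CPM in Appl- members, ranges that overlapped those of the other kept cells (8231 to 10456 and 8386 to 10060 CPM). The glial regulator *repo* had 4 UMIs in all 688 members, in 0.581% of cells against 0.939% of the other kept cells. Other glial markers were detected at similar shares in members and the others. These were *Gs2* (17.9% and 18.3%), *nrv2* (21.5% and 21.2%), *Eaat1* (5.52% and 7.37%), *Gat* (3.20% and 3.64%), *alrm* (2.62% and 3.40%), *moody* (1.02% and 0.616%) and *zyd* (0.727% and 1.51%). Of the 6 hemocyte markers, *Hml* and *He* had 0 UMIs in members, which allows each a share of cells with a UMI of up to 0.436%, and they were rare in the other kept cells too (0.359% and 0.0204%). *crq* was detected in 12.8% of members and 13.2% of the others, and *Nplp2* in 7.41% and 6.92%. The hemocyte sum was 72.2 to 239 CPM in Control and 48.8 to 52.2 CPM in Appl- members, against 101 to 230 CPM and 55.8 to 66.6 CPM in the others, and its part in the results was not tested. The summed level of the 8 glial markers was 208 to 525 CPM in Control members and 216 to 427 CPM in Appl- members. In the other kept cells it was 338 to 596 CPM and 284 to 366 CPM. The fat body markers summed to 2189 CPM in members of Control replicate 1, against 87.9 and 144 CPM in the other Control libraries and 52.2 to 161 CPM in Appl- members. In the other kept cells they summed to 1711 CPM in Control replicate 1, 378 and 253 CPM in the other Control libraries and 93.6 to 140 CPM in Appl- libraries. The fat body sum moved with 1 library, and values that it touches are given below.

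The rule itself set the levels of its genes, which are given as a description with no test. In members, *kn* had 1084, 2284 and 2329 CPM in the Control libraries and 1232, 1316 and 1797 CPM in the Appl- libraries. *Sox21b* had 309.6, 606 and 536 CPM in Control and 382, 509 and 671 CPM in Appl- members. *D* had 404, 669.5 and 619.7 CPM in Control and 580.1, 471 and 604 CPM in Appl- members. For these 3 genes the libraries of the genotypes overlapped. *hui* had 2.42, 3.03 and 5.56 CPM in Control and 336, 348 and 447 CPM in Appl- members, with no overlap between the genotypes.

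Members met the rule in 7 ways. *Sox21b* with *D* and no *hui* was the most frequent combination, with 271 members, followed by *Sox21b* alone with 136 and *D* alone with 126. All of *hui*, *Sox21b* and *D* were found in 66 members, *hui* alone in 39, *hui* with *D* in 30 and *hui* with *Sox21b* in 20. Outside the population the SoxB genes also went together. Among kept cells without *kn*, *D* was detected in 69.0% of the 2527 cells with *Sox21b* and in 4.23% of the 21402 cells without it, at median depths of 2997 and 2615 UMIs. *Sox21b* or *D* was detected in 51.5% of the 1260 cells with *kn* and in 14.3% of the 23929 cells without it. Within the cluster that held most members (cluster 2, below) these shares were 81.2% and 50.1%. Outside it they were 24.7% and 13.1%, at median depths of 4096 and 2674 UMIs. These shares come from pooled cells and are descriptions. In the cluster of kept cells led by glial genes (cluster 23), where *kn* and the SoxB genes gave a measure of background, *kn* was detected in 3.35% of cells, *D* in 9.15%, *Sox21b* in 11.6% and *hui* in 0.305%, at a median of 2592 UMIs.

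The least demanding members had 1 UMI of *kn* (102 cells), and 57.8% of them lay in the cluster that held most of the population (cluster 2, below). Of the 407 members with 4 or more UMIs of *kn*, 78.1% did. Just outside the rule, 14.7% of the 572 cells with *kn* but none of the other genes lay in that cluster, and 12.2% of the 1743 cells with *Sox21b* and *D* but no *kn* did.

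*hui* was close to absent from Control brains and present in Appl- brains. Over all kept cells it had 20, 3 and 3 UMIs in the Control libraries and 126, 192 and 64 UMIs in the Appl- libraries, or 1.24, 0.243 and 0.234 CPM against 9.45, 9.44 and 6.88 CPM. The libraries did not overlap, and the difference on the log2 scale was 3.82 ± 0.563 (standard error, adjusted p = 0.0110, quasi-likelihood test of edgeR over sums per library, Benjamini-Hochberg over 8511 genes, of which 3.02% were called higher). The adjusted p was 0.0620 without Appl- replicate 1 and 0.0675 without Appl- replicate 2, and without Control replicate 1 the difference was 5.13. This comparison was added after the values of the members had been seen. *hui* had 363 UMIs in members and 45 in the other kept cells. The comparison thus largely reused the values by which the rule picked members, and it is no independent evidence. Of the other genes of the rule over all kept cells, *kn* had 62.1, 108 and 92.7 CPM in Control and 68.7, 59.7 and 51.8 CPM in Appl- libraries, a difference of -0.54 ± 0.205 that was not called (adjusted p = 0.187). *Sox21b* differed by 0.10 ± 0.171 (adjusted p = 0.821) and *D* by 0.05 ± 0.108 (adjusted p = 0.850), also not called. *Appl* itself had 2063, 2316 and 2058 CPM in Control and 205, 255 and 233 CPM in Appl- libraries, as the labels require, a difference of -3.22 ± 0.120 (adjusted p = 1.89e-05).

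**Figure D1:**
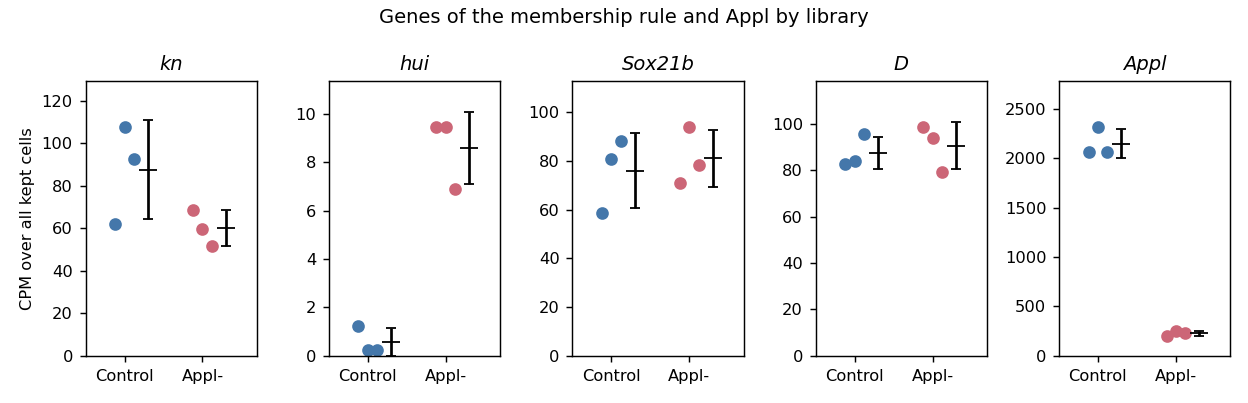
Level of the 4 genes of the rule and of Appl over all kept cells, in CPM with library scaling, for each of 3 Control (blue) and 3 Appl- (red) libraries. Bars show the mean and SD. hui lies between 0.234 and 1.24 CPM in Control and between 6.88 and 9.45 CPM in Appl- libraries, and the other rule genes overlap between genotypes.

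The *hui* transcripts of Appl- brains were in cells with *kn*. In Appl- libraries *hui* was detected in 151 of 623 cells with *kn* (24.2%) and in 18 of 12643 cells without it (0.142%), at median depths of 2657 and 2521 UMIs. In Control libraries it was detected in 4 of 637 cells with *kn* (0.628%) and in 5 of 11286 cells without it (0.0443%). Among members, 1 of 114, 1 of 108 and 2 of 129 Control cells and 48 of 104, 75 of 171 and 28 of 62 Appl- cells had *hui*. The mean shares were 1.12% ± 0.375 and 45.1% ± 1.15 (SD, n = 3 libraries each), and the libraries did not overlap. The rule used *hui* to choose members, so these shares are a description with no test. The 39 members that met the rule through *hui* alone were all Appl- cells, and 0 of 351 Control members did so, which allows a share of up to 0.855%.

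Of the other genes within 5 positions of *kn* or *hui* that are named here, none was called between genotypes over all kept cells. *BEAF-32*, which encodes an insulator protein and lies on the other side of *kn*, had 64.9 to 81.9 CPM in Control and 65.3 to 68.4 CPM in Appl- libraries (difference -0.13 ± 0.0988, adjusted p = 0.538). *Spred* and *Trs31* differed by 0.00 and -0.05, and *CG10209*, on the other side of *hui*, by 0.06, with adjusted p of 0.830 or more. *Sox21a*, the SoxB gene beside *Sox21b*, had 0 UMIs in members.

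Members made up 2.57%, 3.19% and 3.15% of the kept cells in Control libraries and 2.85%, 2.65% and 1.97% in Appl- libraries. The means were 2.97% ± 0.350 and 2.49% ± 0.463 (SD, n = 3 libraries each), and the libraries overlapped (difference of -0.482 percentage points, exact permutation test, two-sided p = 0.3). Because *hui* added cells in 1 genotype only, the share was also computed from *kn* with *Sox21b* or *D* alone, where the means were 2.97% and 2.20% (exact permutation test, two-sided p = 0.2). After each cell had been thinned to 1000 UMIs, which left out shallower cells, the means were 1.71% and 1.55% (exact permutation test, two-sided p = 0.7).

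Kept cells were clustered on 2000 variable genes from which *kn*, *hui*, *Sox21b* and *D* had been left out, so that the place of members in the clusters did not follow from those 4 genes. Members nevertheless gathered in 1 of 41 clusters. Cluster 2, with 1426 cells, held 513 members (74.6%), which made up 36.0% of its cells. In the other 40 clusters members made up 0 to 4.23% of the cells, with a median of 0.469%. *kn* was detected in 41.9% of the cells of cluster 2 and in 0 to 22.7% of the cells of the others (median 1.45%). The share of members that lay in cluster 2 was 43.9%, 80.6% and 86.8% in the Control libraries and 68.3%, 78.9% and 93.5% in the Appl- libraries, lowest in Control replicate 1. Members in cluster 2 had a median of 2223 UMIs and the 175 members elsewhere one of 4600, a depth gap that bears on every share of cells with a UMI.

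**Figure D2:**
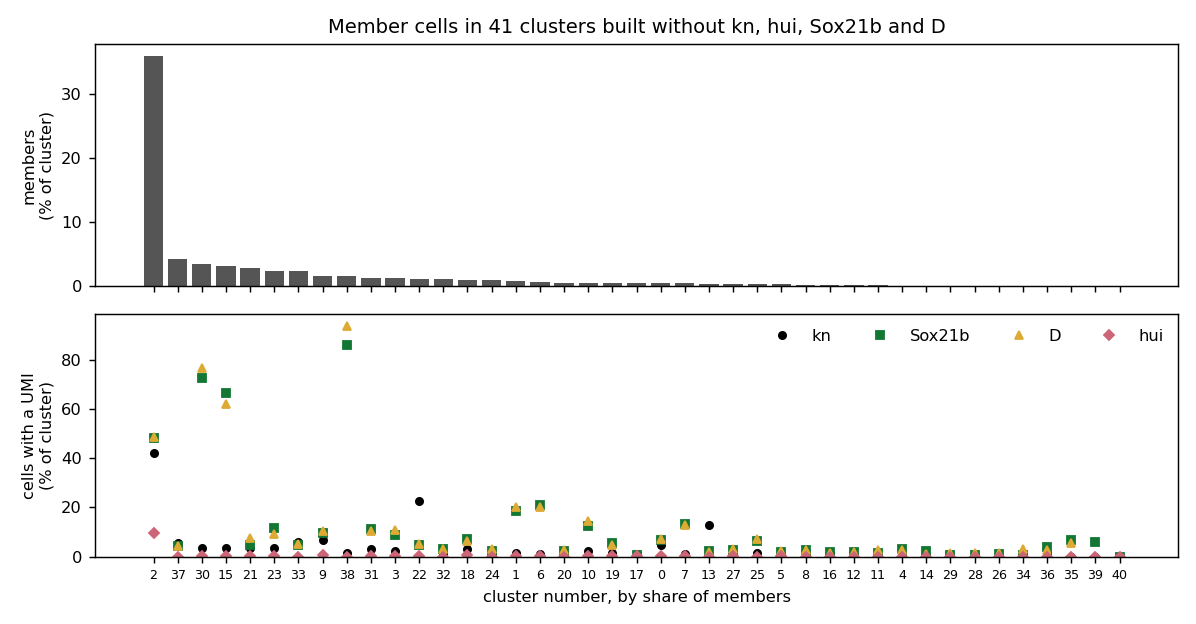
Share of each cluster's kept cells that were members (upper bars, % of cluster) and share of its cells with at least 1 UMI of kn, Sox21b, D or hui (lower points, % of cluster), for 41 clusters ordered by the share of members. Cluster 2 stands at 36.0% members and the next cluster at 4.23%.

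Most members had the glutamatergic transmitter gene. *VGlut*, the vesicular glutamate transporter, was detected in 82.4% of members and in 23.4% of the other kept cells. *VAChT* or *ChAT*, which mark cholinergic neurons, were detected in 25.1% of members and in 66.1% of the others, and *Gad1*, which marks GABAergic neurons, in 12.5% and 20.7%. In the glial-gene cluster 23 these shares were 22.9% for *VGlut*, 46.6% for *VAChT* or *ChAT* and 17.7% for *Gad1*, so the shares of members with *VAChT* or *ChAT* and with *Gad1* were below this background and that with *VGlut* above it. Members in cluster 2 had *VGlut* in 89.5% of cells and *VAChT* or *ChAT* in 10.1%. The 913 cells of cluster 2 that were not members also had *VGlut* in most cells, 90.5%. *CG46448*, an uncharacterised gene, and the peptide gene *Nplp1* were detected in 94.5% and 46.0% of members in cluster 2 and in 93.8% and 51.6% of its other cells. For *Lim3* the shares were 67.3% and 20.6%, and for *ey* 49.5% and 5.91%. These genes entered the clustering, so the shares are descriptions. Members outside it had *VGlut* in 61.7% and *VAChT* or *ChAT* in 69.1%, and 54.3% of them had more than 1 kind of transmitter gene, at the greater depth given above. In Control replicate 1, 50.9% of members had more than 1 kind, against 4.84% to 37.5% in the other libraries.

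Counts summed per library over members were compared with those over all other kept cells of the same library, with a term for each library. The 4 genes of the rule were set aside. Of 7356 genes tested, 53 (0.721%) were higher in members and 242 (3.29%) lower, at an adjusted p under 0.05 and at least 2-fold. Levels in this comparison are CPM with edgeR's library scaling, and differences are on the log2 scale with their standard errors.

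*VGlut* had 715, 1502 and 1142 CPM in Control members and 1006, 1583 and 1557 CPM in Appl- members, against 292 to 540.3 CPM in the other cells. It was higher in members of all 6 libraries (1.60 ± 0.0813, adjusted p = 7.57e-12). The 3 listed cholinergic genes *VAChT* (-1.36), *ChAT* (-1.13) and *ChT* (-1.19) were lower, as was *Gad1* (-1.51), while *VGAT*, the GABA vesicle transporter, did not reach the fold limit (-0.45). Of 7 monoaminergic genes tested 5 were lower, among them *Vmat*, the vesicular monoamine transporter, with 0 to 95.1 CPM in members and 84.2 to 299 CPM in the others (-3.26 ± 0.291, adjusted p = 5.83e-08). The share of cells with a *Vmat* UMI was similar, 2.91% of members and 3.38% of the others.

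Transcription factors set members apart in both directions. Of 121 listed identity factors 89 were tested, 5 of which were higher and 38 lower. The median difference over those tested was -1.13, beside -0.02 over all genes tested. *Lim3*, a LIM-homeodomain factor of motor neurons and interneurons, had 253, 556 and 469.8 CPM in Control members and 415, 409.8 and 526 CPM in Appl- members. No library of the other cells exceeded 94.3 CPM (2.33 ± 0.102, adjusted p = 9.94e-13). *tup* (tailup), the fly Islet LIM-homeodomain factor, had 133 to 302 CPM in members and 41.5 to 71.3 CPM in the others (1.82 ± 0.104, adjusted p = 4.13e-11). In sub-cluster 10 of a finer clustering (below), *tup* was detected in 32.5% of members and in 38.8% of the other cells. In sub-cluster 42 the shares were 66.0% and 42.4%. *ey* (eyeless), a Pax6 factor, had 170.1 to 289 CPM against 50.7 to 76.9 CPM (1.87). *ttk* (tramtrack), a zinc finger repressor, had 5.83 to 40.5 CPM in members and 1.32 to 7.38 CPM in the others (2.43). *Oaz*, a zinc finger gene, was higher by 1.88 (adjusted p = 0.0392), a call that ended without Control replicate 1, 2 or 3 or Appl- replicate 3 (adjusted p of 0.118, 0.293, 0.0518 and 0.103). *Hmx*, a homeobox gene outside that list, had 52.4 to 94.4 CPM in members and 16.9 to 29.2 CPM in the others (1.79 ± 0.157, adjusted p = 4.57e-08). *Hmx* was not particular to members within cluster 2. It was detected in 15.8% of members there and in 14.1% of that cluster's other cells (100 and 121 CPM over pooled cells, without scaling).

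Among the 38 factors that were lower, *acj6*, a POU factor of olfactory and visual neurons, had 0 to 106 CPM in members and 179 to 217 CPM in the others (-2.37 ± 0.320, adjusted p = 1.63e-05). *toy* (twin of eyeless), the other fly Pax6 factor, was lower in members (-1.66) although *ey* was higher. *pros* (prospero), a homeodomain factor of neural differentiation, had 1787 to 5593 CPM in members and 7296 to 10524 CPM in the others (-1.55). The T4/T5 neuron genes *acj6*, *dac* and *TfAP-2* were lower. Of 3 Mi1 neuron genes *bsh* was lower (-2.15, adjusted p = 0.00434, and 0.240 with cells thinned to 1000 UMIs), and *ap* (-0.94) and *hth* (-0.72) did not reach the fold limit. Of the other Sox genes, *SoxN* (-1.35) and *Sox102F* (-1.22) were lower in members.

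Of 22 neuropeptide genes tested, 2 were higher and 9 lower. *Dh31*, the precursor of a CGRP-like diuretic hormone, had 678, 1133 and 1012 CPM in Control members and 618, 789 and 1115 CPM in Appl- members, against 136 to 342 CPM in the others (1.97 ± 0.182, adjusted p = 9.64e-08). *Nplp1*, which *kn* is known to control in peptidergic neurons of the ventral nerve cord, had 300.2 to 583 CPM in members and 184 to 229.7 CPM in the others (1.04 ± 0.104, adjusted p = 3.09e-07). *Nplp1* was not particular to members within cluster 2. It was detected in 46.0% of members there and in 51.6% of that cluster's other cells (526 and 718 CPM over pooled cells, without scaling). Of the partners of *kn* in those ventral nerve cord neurons, *eya* had 3 UMIs in 688 members, and *ap* did not reach the fold limit (-0.94). The sensory neuron genes *ppk* and *ppk26* had 0 UMIs in members, and *ct* (cut), a homeodomain factor of sensory neurons, did not reach the fold limit (0.53). *AstA*, which encodes allatostatin A, had 0 to 11.4 CPM in members and 23.4 to 339 CPM in the others (-5.04). *AstC*, *CCHa2* and *NPF*, which encode other peptides, were also among the largest falls, at -5.11, -4.70 and -5.70. *NPF* had 1487 CPM in the other cells of Appl- replicate 1 and 2.75 to 87.6 CPM in the rest of the libraries.

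Among cell surface proteins of the immunoglobulin superfamily, which sort synaptic partners, members differed from the other cells in both directions. Of 32 dpr and DIP genes 5 were higher and 4 lower. *DIP-lambda* had 90.1, 183 and 221 CPM in Control members and 240.2, 390.4 and 351 CPM in Appl- members, against 28.6 to 56.8 CPM in the others (2.50 ± 0.140, adjusted p = 3.59e-11). Within cluster 2 it was detected in 35.1% of members and in 19.7% of the other cells (343 and 262 CPM over pooled cells, without scaling). *DIP-delta* (1.49), *DIP-iota* (3.02), *dpr2* (1.77) and *dpr5* (1.68) were also higher. *DIP-beta*, *DIP-epsilon*, *DIP-zeta* and *dpr13* were lower. Of 21 beat and side genes tested 4 were higher and 2 lower, led by *beat-Ic* with 506 to 1366 CPM in members and 211 to 418 CPM in the others (1.53 ± 0.0785, adjusted p = 7.57e-12).

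Other genes with the largest differences were *CG31176* (3.97 ± 0.313, adjusted p = 7.81e-09) with 45.7 to 113 CPM in members and 2.20 to 6.43 CPM in the others, and *bt* (3.34), which encodes the titin-like muscle protein projectin. *TrpA1*, a cation channel of heat and irritant sensing, had 12.5 to 42.1 CPM in members and 1.70 to 3.68 CPM in the others (3.12 ± 0.360). *CARPB*, which encodes a carbonic anhydrase-related protein, had 300.2 to 733 CPM against 77.2 to 114.8 CPM (2.52). *CG46448* (1.92), *CG11294* (1.57), *lncRNA:CR44978* (2.48) and *asRNA:CR45139* (1.41) completed the 20 largest rises. Among receptors, *TrissinR* (1.01) and *CCKLR-17D1* (1.05) were higher and 5 peptide receptors lower. Of 43 transmitter receptor genes 8 were lower, and no other was called. edgeR called 0 of 26 autophagy genes and 0 of 13 mitochondrially encoded protein genes, of which 5 and 1 had an unadjusted p under 0.05.

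**Figure D3:**
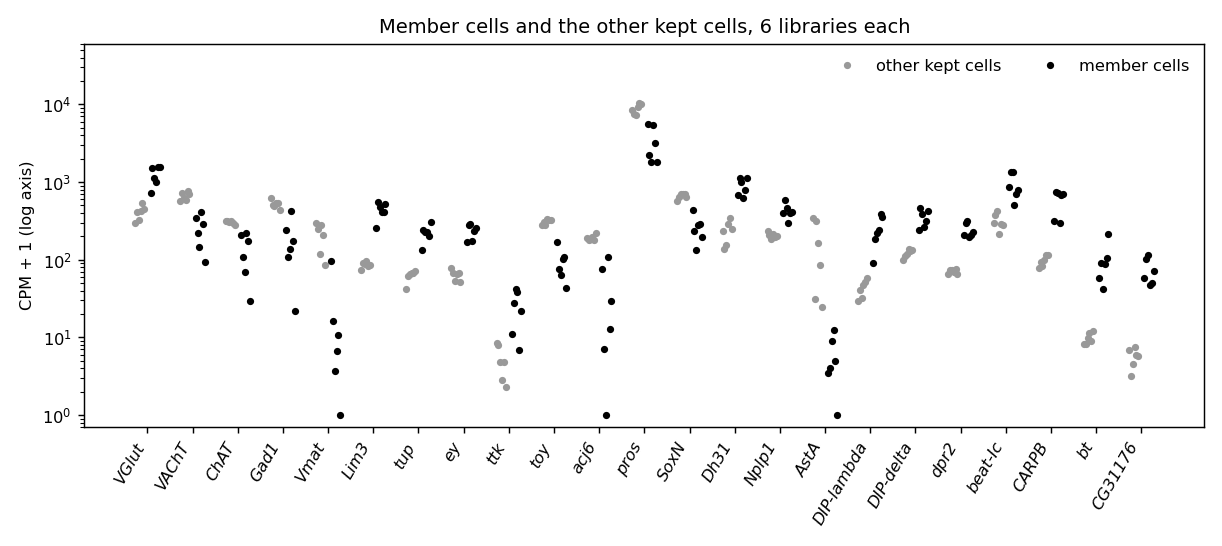
Level of 23 transmitter, transcription factor, peptide and surface protein genes in members (black) and in the other kept cells (grey), as CPM + 1 on a log axis, with 1 point for each of 6 libraries. Lim3 lies at 253 to 556 CPM in members and at no more than 94.3 CPM in the others, while acj6, pros, Vmat and AstA lie lower in members.

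Members were also compared with the 572 kept cells that had *kn* but none of *hui*, *Sox21b* and *D*. Those cells lay mostly outside cluster 2 (14.7% in it), and *VGlut* was detected in 38.1% of them. They numbered 140, 86 and 60 in Control and 110, 121 and 55 in Appl- libraries and were deeper, with medians of 2970 to 4359 UMIs. Of 3679 genes tested, 37 (1.01%) were higher in members and 97 (2.64%) lower, with the same limits. Library scaling was computed anew, so levels differ slightly from those above.

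*DIP-lambda* had 94.4, 189.6 and 232 CPM in Control members and 251, 406 and 386 CPM in Appl- members, against 9.23 to 36.4 CPM in the other *kn* cells (3.49 ± 0.232, adjusted p = 3.87e-08). *VGlut* was higher in members (1.42 ± 0.114, adjusted p = 3.59e-07), and *VAChT* (-1.61), *ChAT* (-1.34) and *ChT* (-1.97) were lower. *Gad1* was not called (0.07). Of 36 identity factors tested, *ey* (2.25), *Lim3* (1.48) and *ct* (1.22) were higher and 15 were lower. *ey* had 178 to 302 CPM in members and 14.6 to 114 CPM in the other *kn* cells. *acj6* had 0 to 110 CPM in members and 366 to 982 CPM in the other *kn* cells (-3.83 ± 0.366, adjusted p = 1.16e-06). *tj* (traffic jam), a Maf factor, had 0 to 9.32 CPM against 34.0 to 129.6 CPM (-4.19). *bi* (bifid), a T-box factor, and *dati*, a zinc finger factor, were lower by 2.14 and 2.20 on the log2 scale.

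*Nplp1* (1.93) and *Dh31* (1.81) were the peptide genes that were higher in members than in the other *kn* cells. *Dh44*, the precursor of diuretic hormone 44, had 0 to 70.7 CPM in members and 47.5 to 214 CPM in the others (-2.49 ± 0.458, adjusted p = 9.87e-04). *beat-Ic* (2.11), *CG31176* (2.90), *bt* (2.60), *lncRNA:CR44978* (1.93) and *CG46448* (1.90) were higher here too. *Lac* (Lachesin), a septate junction protein, had 30.3 to 100.4 CPM in members and 4.05 to 19.9 CPM in the other *kn* cells (2.26). *18w*, a Toll family receptor gene, *rgn*, *CG13408*, *CG15537* and *lncRNA:CR45223* were among the largest falls, between -2.14 and -2.96. Of 14 genes tested from the TGF-beta and BMP list, the ligand genes *myo* (myoglianin, 1.52 ± 0.238, adjusted p = 2.04e-04) and *mav* (maverick, 1.07 ± 0.254, adjusted p = 0.00827) were higher in members and none was lower. *myo* had 68.2, 127 and 116 CPM in Control members and 98.5, 133 and 224 CPM in Appl- members, against 8.64 to 62.7 CPM in the other *kn* cells.

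Members with *D* and neither *Sox21b* nor *hui* were compared with members with *Sox21b* or *hui* and no *D*. Of 1193 genes, edgeR called 0 in either direction, and 54 had an unadjusted p under 0.05. At these sizes, 8 to 37 *D* cells a library, the comparison does not show that the groups are alike.

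A finer clustering of the kept cells, at Leiden resolution 2 with 58 clusters, split the population into a larger and a smaller set. Sub-cluster 10, with 826 cells, held 342 members (49.7%). Sub-cluster 42, with 186 cells, held 153 members (22.2%), and *kn* was detected in 96.8% of its cells. Both had members from every library. Sub-cluster 10 held 35, 52 and 70 members of the Control and 52, 94 and 39 of the Appl- libraries, and sub-cluster 42 held 10, 33 and 40 against 16, 36 and 18. The other 193 members were spread over further clusters, 69 of them from Control replicate 1. Because the clustering used the genes that follow, they describe the sets and were not tested.

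*VGlut* was detected in 88.9% of members of sub-cluster 10 and in 90.2% of those of sub-cluster 42, *CG46448* in 93.3% and 98.0%, *Lim3* in 63.5% and 77.1%, and *ey* in 50.6% and 49.0%. The 484 cells of sub-cluster 10 that were not members had *VGlut* in 88.02% and *CG46448* in 91.3% of cells, *Lim3* in 29.5% and *ey* in 8.06%. *Sox21b* was detected in 75.4% and 68.6%, *D* in 76.3% and 66.0%, and *hui* in 23.4% and 32.0%. Surface proteins and peptides differed between the sets. Sub-cluster 42 was the *Dh31* set, with *Dh31* in 98.0% of its members against 8.77% in sub-cluster 10. *CARPB* was detected in 96.1% of its members against 5.26%, *DIP-delta* in 88.2% against 7.31%, *dpr5* in 64.1% against 5.56%, and the trissin receptor gene *TrissinR* in 50.3% against 3.22%. The 33 cells of sub-cluster 42 that were not members, 27 of them with *kn*, also had these genes. *Dh31* was in 78.8% of them, *CARPB* in 84.8%, *DIP-delta* in 78.8%, *dpr5* in 30.3% and *TrissinR* in 39.4%.

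Sub-cluster 10 was the *Nplp1* set, with *Nplp1* in 62.9% of its members against 7.19%. Its non-members had *Nplp1* in 56.8% of cells, *beat-Ic* in 40.3%, *DIP-lambda* in 7.44% and *Hmx* in 7.85%. *beat-Ic* was detected in 86.8% of its members against 3.92%, and *beat-Ib* in 71.3% against 4.58%. *DIP-lambda* (50.9%), *CG31176* (28.7%), *Hmx* (22.5%) and *CCKLR-17D1* (9.36%) were detected in members of sub-cluster 10 and in 0 of the 153 members of sub-cluster 42, which allows a share of up to 1.96%. *Dh31* and *Nplp1*, both higher in members than in the other kept cells, thus came mostly from different cells. *CCHa1*, a peptide gene that leads sub-cluster 10, was detected in 4.75% of the non-members of that sub-cluster and in 0 of its 342 members.

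**Figure D4:**
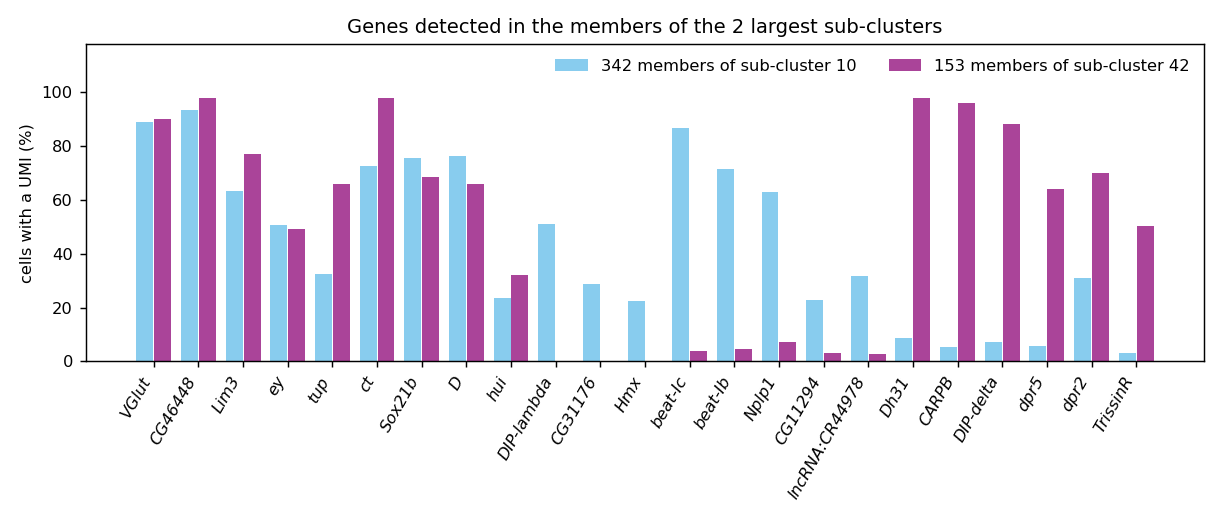
Share of members with at least 1 UMI of each gene (% of cells) in sub-cluster 10 (342 members, light bars) and sub-cluster 42 (153 members, dark bars), pooled over 6 libraries. The first 9 genes are found in both sets. Dh31, CARPB and DIP-delta are in 88.2% to 98.0% of the members of sub-cluster 42, and beat-Ic and beat-Ib in 71.3% to 86.8% of those of sub-cluster 10.

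Members of Appl- brains were compared with members of Control brains, with the library as the unit, with calls at an adjusted p under 0.05 and a difference of at least 0.32 on the log2 scale. The rule took in 39 of the 337 Appl- members through *hui* alone and 0 of the 351 Control members. The members compared were thus not chosen alike in the genotypes. Of 3774 genes tested, 24 (0.636%) were higher in Appl- members and 19 (0.503%) lower. With the replicate number as a block the counts were 41 and 31. Without Control replicate 1, 49 genes were higher. Without Control replicate 2 or 3 or Appl- replicate 1 or 2, 10, 14, 13 and 11 genes were higher, and without Appl- replicate 2, 12 were lower. In members, *Appl* had 1977, 2236 and 1997 CPM in Control and 182, 292 and 208 CPM in Appl- libraries (-3.16 ± 0.204, adjusted p = 1.16e-06).

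Of the 53 genes higher in members than in the other kept cells, 36 were tested between genotypes and 0 called. Of the 242 lower genes, 71 were tested and *lncRNA:CR45223* was called. *Lim3* (0.08, adjusted p = 0.951), *tup* (0.23), *ey* (-0.17), *Hmx* (0.02), *VGlut* (0.32), *Dh31* (-0.17), *Nplp1* (-0.38) and *CARPB* (-0.07) had adjusted p of 0.587 or more. Of all 3774 genes tested, 599 (15.9%) had no overlap between the libraries of the genotypes, so a lack of overlap alone is no sign of a change. *DIP-lambda* had 95.3, 190.5 and 234 CPM in Control and 250.4, 405 and 385 CPM in Appl- members, with no overlap, and was not called (1.00 ± 0.287, adjusted p = 0.171) except with the replicate block (1.06, adjusted p = 0.00749) and with no filter on low counts (adjusted p = 8.91e-04). *beat-Ic* had 905, 1406 and 1445 CPM in Control and 528, 727 and 871 CPM in Appl- members, with no overlap, and was not called either (-0.84 ± 0.221, adjusted p = 0.109). It was called with the replicate block (-0.83, adjusted p = 0.00347) and without Control replicate 1 (-1.02, adjusted p = 0.00449). It was also called with thinned cells, in members of cluster 2 alone and with no filter on low counts (adjusted p of 0.0297, 0.0227 and 0.00189). DESeq2 did not call it, so the call of *beat-Ic* depended on the setting.

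Several genes were absent from the members of 1 genotype, and their differences over all kept cells are given below. *CG30428* had 0 UMIs in all Control members and 47, 62 and 16 UMIs in Appl- members, at least 45.7-fold higher against a floor of 3 UMIs over the group (adjusted p = 2.34e-05). The serotonin receptor gene *5-HT1B* had 0 UMIs in Control and 44, 57 and 6 UMIs in Appl- members, at least 39.2-fold higher (adjusted p = 2.21e-04). *CG32581* had 0 UMIs in Control members and was at least 20.5-fold higher (adjusted p = 0.00105). In the other direction, *asRNA:CR44429*, *CG6912*, *asRNA:CR45600* and *Arc1* had 0 UMIs in Appl- members. *Arc1*, an activity-regulated gene whose protein forms capsids, had 135, 43.7 and 40.0 CPM in Control members and was at least 24.0-fold lower in Appl- members (adjusted p = 0.00576, and 0.0753 without Appl- replicate 2). Of its 79 Control UMIs 51 were in Control replicate 1, and without that library the bound was 13.6-fold. The other bounds were at least 26.4-fold, 21.6-fold and 21.3-fold lower. The sources used here do not state whether counting used the strand, so antisense RNAs and their partner genes may share reads.

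*CG1648* had 37.1, 18.7 and 28.6 CPM in Control and 274, 149 and 254 CPM in Appl- members (2.93 ± 0.325, adjusted p = 1.98e-04). *CG17691* had 0 to 2.86 CPM in Control and 61.7 to 84.6 CPM in Appl- members (5.05 ± 0.546, adjusted p = 1.98e-04). *lncRNA:CR43241* (3.46), *l(2)41Ab* (3.96), *CkIIalpha-i3* (2.99), *CG12768* (2.78) and *lncRNA:CR45223* (3.14) were the other rises among the 10 largest. The calls of *l(2)41Ab* (adjusted p = 0.0803) and *CkIIalpha-i3* (0.111) ended without Appl- replicate 2, those of *CG12768* (0.0513) and *CkIIalpha-i3* (0.0527) without Control replicate 2, and that of *lncRNA:CR45223* (0.0571) without Appl- replicate 1. *lncRNA:CR45223* was thus higher in Appl- members, and lower in members than in the other *kn* cells of each library. Among the falls, *Rab18*, a small GTPase of lipid droplets, had 58.2 to 111 CPM in Control and 2.98 to 15.4 CPM in Appl- members (-3.19 ± 0.481, adjusted p = 0.00256). *Mtpbeta*, a subunit of the mitochondrial trifunctional protein of fatty acid oxidation (-2.28, adjusted p = 0.0223), *Mis12*, a kinetochore protein gene (-1.76, adjusted p = 0.0120), *CG6654* (-2.22, adjusted p = 0.0338) and *asRNA:CR45009* (-4.93) completed the 10 largest falls. The call of *Mtpbeta* ended without Control replicate 2 or 3 or Appl- replicate 1 or 2 (adjusted p up to 0.186), that of *Mis12* without Control replicate 3 or Appl- replicate 1 (up to 0.0849), that of *CG6654* without any library but Control replicate 1 (up to 0.275), and that of *asRNA:CR45009* without Appl- replicate 2 (0.0706).

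A list of 15 genes that the study chose on these samples, for changes in many cell clusters, was followed in members and is no independent evidence. In members 7 of the 15 were higher and 6 lower. *dpr21*, the surface protein gene of that list, had 55.6, 99.95 and 106 CPM in Control and 292, 289.9 and 385 CPM in Appl- members (1.86 ± 0.247, adjusted p = 8.68e-04). *lncRNA:CR44922* (2.46), *fipi* (2.03) and *Ctr9*, a subunit of the Paf1 elongation complex (1.65), were also higher. *uex* (unextended), a magnesium transporter, had 1173, 1352 and 1437 CPM in Control and 369.7, 509 and 509 CPM in Appl- members (-1.52 ± 0.182, adjusted p = 3.85e-04). *Syn1*, a syntrophin (-1.37), and *gce*, a juvenile hormone receptor (-1.13), were lower. *Ca-alpha1D*, a voltage-gated calcium channel gene, had 296 to 390.4 CPM in Control and 517 to 644 CPM in Appl- members and was not called (0.78 ± 0.180, adjusted p = 0.0534). The glucose transporter gene *Glut1* had 508 to 659 CPM and 268 to 413 CPM and was not called (-0.76 ± 0.197, adjusted p = 0.101). With the replicate block both were called, at adjusted p of 0.0167 and 0.0110. The call of *fipi* ended without any single library but Control replicate 1 (adjusted p up to 0.169), and that of *Ctr9* without Control replicate 2 or 3 or Appl- replicate 2 or 3 (up to 0.150). Without Control replicate 1, *Glut1* was called (0.0275).

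**Figure D5:**
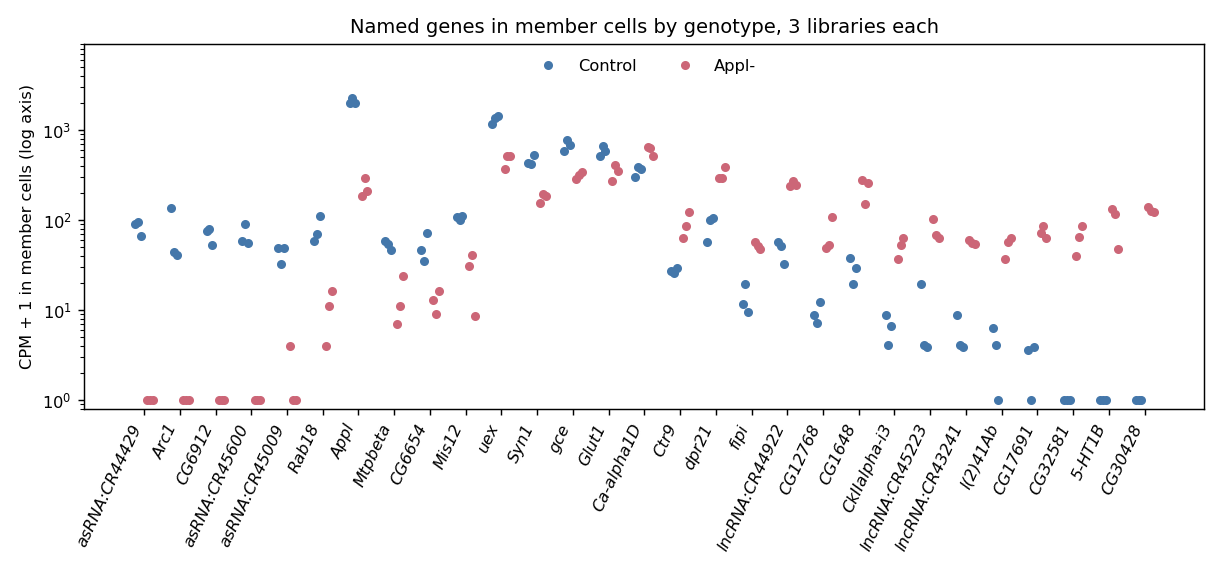
Level of the 29 named genes in members, as CPM + 1 on a log axis, for 3 Control (blue) and 3 Appl- (red) libraries, ordered by the log2 difference. Genes at 1 on the axis had 0 UMIs, such as CG30428 in Control and Arc1 in Appl- libraries.

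Few listed genes were called between the genotypes, as were few of all genes (0.636% higher and 0.503% lower), and nothing particular to the lists is read from the counts. Of 32 identity factors, 7 neuropeptides, 13 peptide receptors, 21 voltage-gated ion channels, 25 synaptic vesicle genes, 21 beat and side genes, 14 TGF-beta and BMP genes, 13 autophagy genes and 13 mitochondrially encoded protein genes tested in members, edgeR called 0, with 18 of the 159 at an unadjusted p under 0.05, and DESeq2 also called 0. With the replicate block 5 of the 159 were called, *Ca-alpha1D* (0.79) and *Shab* (0.74), a potassium channel gene, higher, and *beat-Ic* (-0.83), the tachykinin gene *Tk* (-2.19) and *Sox102F* (-1.56) lower. Their medians ran from -0.21 (autophagy) to 0.09 (TGF-beta and BMP), beside -0.02 over all genes tested. Of 35 transmitter receptors *5-HT1B* was called higher, and of 27 dpr and DIP genes *dpr21* was. The block added the octopamine receptor gene *Octbeta1R* (-1.25, adjusted p = 0.0363) to the first, and *DIP-lambda* and *DIP-eta* (-1.67, adjusted p = 0.0138) to the second. *Yp1*, a yolk protein gene of the fat body, was called lower (-9.02, adjusted p = 0.04995), with 2107 CPM in members of Control replicate 1, 40.6 and 37.1 CPM in the other Control libraries, and 2.98, 0 and 0 CPM in Appl- members. *Yp1* is itself 1 of the 6 fat body markers summed above. It made up 1925 of the 2189 CPM of that sum in members of Control replicate 1, without scaling. Without that library the difference was -4.77 (adjusted p = 0.00492). The call ended without any single Appl- library (adjusted p of 0.118 to 0.289).

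The same genes were compared between genotypes over all kept cells, which include the members and share their libraries, so the values are given side by side. Of the 43 genes called in members, 41 were called the same way over all kept cells. *Appl* differed by -3.16 in members and -3.22 over all kept cells, *gce* by -1.13 and -1.07, *Syn1* by -1.37 and -1.41, *dpr21* by 1.86 and 1.48, *uex* by -1.52 and -0.94, and *CG1648* by 2.93 and 1.39. The genes named above as absent from members of 1 genotype were called over all kept cells too. *CG30428* differed there by 13.9, *5-HT1B* by 9.37 and *CG32581* by 12.8. *asRNA:CR44429* differed by -6.81, *CG6912* by -9.19, *asRNA:CR45600* by -9.86 and *Arc1* by -6.12. Whether the genotype effect differed between members and the other kept cells was tested as an interaction, with library terms in the model. Of 7993 genes, 16 (0.2%) had a more positive effect in members and 6 (0.0751%) a more negative one. These 22 genes became 49, 42, 61, 42 and 69 without Control replicate 1, 2 or 3 or Appl- replicate 2 or 3.

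Of the 5 genes with the smallest p in that test, each had most of its UMIs in 1 member cell of 1 library. *CG2145* had 137 of its 140 UMIs in members of Appl- replicate 1 in 1 cell of the glial-gene cluster 23, *Nepl15* had all 34 and *CG42489* all 31 there in 1 cell of that cluster, and *b* (black) had 21 of 24. *Pdh* had 158 of its 183 UMIs of Appl- replicate 2 in 1 cell of cluster 18. *CG1648*, *CG17691* and *uex* had UMIs in every library of at least 1 genotype, although 27 of the 92 *CG1648* UMIs in members of Appl- replicate 1 were in 1 cell. The genotype effect of *CG1648* was more positive in members by 1.59 ± 0.291 (adjusted p = 0.00415), that of *CG17691* by 3.50 ± 0.693 (adjusted p = 0.0101), and that of *uex* more negative (-0.58 ± 0.133, adjusted p = 0.0409, and 0.0929, 0.0544 and 0.264 without Control replicate 2, Control replicate 3 and Appl- replicate 1). With cells thinned to 1000 UMIs none of these calls was kept (adjusted p of 0.5003, 0.376 and 0.0509), and that of *CG17691* also ended without the 5% of cells with the most UMIs (adjusted p = 0.105). In members of cluster 2 alone, *CG1648* (1.77, adjusted p = 0.0204) and *CG17691* (10.08, adjusted p = 0.00515) were called and *uex* was not (-0.48, adjusted p = 0.118).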

How the data were processed

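Per the labels and the study's methods, single-cell 3′ libraries were made from dissociated brains, and the authors deposited raw UMI counts per barcode and feature from Cell Ranger 6.0. The aligner settings, genome build and strand setting are not given in the sources used here. Features without a gene ID, with 0.698% of UMIs, were left out. Of 16493 gene IDs, 16447 (99.7%) matched an annotation (Ensembl release 115) used for chromosomes, strands and neighbours only, and no sequence was printed because none was at hand.

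Barcodes entered the analysis if they had 200 genes or more and no more than 10% mitochondrial UMIs. Depth after filtering was 9318086 to 20896015 UMIs a library, and 134108 to 522635 in members. Intervals and limits cover counting error only. Levels given with a scaled comparison are TMM-scaled CPM, and those of marker sums and of the rule genes in members are plain CPM. Clustering used scanpy 1.11.5 and leidenalg 0.10.2 (2000 variable genes, 30 principal components, 20 neighbours, resolution 1, also 0.5 and 2) without *kn*, *hui*, *Sox21b* and *D*.

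Counts were summed per library and compared in R 4.3.3 by edgeR 4.0.16 (quasi-likelihood test), after filterByExpr and Benjamini-Hochberg adjustment over all genes tested. The code was tested on simulated data. Shares were compared with exact permutation tests over libraries (SciPy 1.17.1), and 95% intervals are Clopper-Pearson. Genes named were the 20 largest rises and 5 largest falls against the other kept cells with at least 20 CPM and 1 direction in all libraries, the called identity factors, the 10 largest in each direction against other *kn* cells and between genotypes, the study's list, the listed markers, and the 5 smallest p of the difference of effects. Genes of the sub-clusters, the neighbours of *kn* and *hui*, and other genes given with their lists were picked with their values known. The members and lists were chosen with earlier results of these data known.

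The labels number the replicates 1 to 3 in both genotypes. Across genes, libraries with the same number deviated together from the mean of their genotype (correlations of 0.30, 0.11 and 0.20 in members and of 0.30, 0.25 and 0.37 in all kept cells). No source says what a number shares. The main genotype tests and the share tests did not use the numbers, and the replicate block, which takes them as pairs, was an alternative. Nothing says that replicates were separate cultures, so p-values measure the spread between these libraries. Counts of any 2 libraries of 1 genotype differed by 11.0 to 70.8 times the sampling noise, so no library repeated another. Alternatives were DESeq2 1.42.0, its size factors, no filter on low counts, other limits on cells, at least 2 UMIs of *kn*, thinning to 1000 UMIs, the replicate block and leaving out each library. Members of cluster 2 alone, the rule without *hui*, and leaving out the members of cluster 23 were added after seeing the data.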

Additional observations from a re-analysis of the deposited data

Results flagged for a closer look

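The genotype effect differed between members and the other kept cells for 22 genes (edgeR, difference tested in 1 model). The differences of effect on the log2 scale were 7.39 for *CG2145*, 6.45 for *Nepl15*, 5.69 for *CG42489*, 5.31 for *b* and 2.14 for *Pdh*, each with most of its UMIs in 1 member cell of 1 library, and 1.59 for *CG1648*, 3.50 for *CG17691* and -0.58 for *uex*, which had UMIs in several cells and libraries. The calls of *CG1648*, *CG17691* and *uex* ended with cells thinned to 1000 UMIs (adjusted p of 0.5003, 0.376 and 0.0509), and that of *uex* also without single libraries (adjusted p up to 0.264). Of the 92 *CG1648* UMIs in members of Appl- replicate 1, 27 were in 1 cell.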

How the results depend on the processing

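The share of members kept its direction under every alternative run, from -0.684 to -0.221 percentage points when single libraries were left out. The counts of called genes moved. Higher in Appl- members were 24 genes, and 77 with no filter on low counts, 5 with cells thinned to 1000 UMIs, 12 in members of cluster 2 alone, 41 with the replicate block, 15 with DESeq2, and 10 to 49 without single libraries. Lower were 19 genes, and 84, 6, 10 and 31 under the first 4 of these, and 12 to 28 without single libraries. Against the other kept cells, 53 genes were higher and 242 lower, and in members of cluster 2 alone 88 and 469. Without single libraries they were 38 to 56 and 189 to 251. Against other *kn* cells, 37 were higher and 97 lower, and 63 and 182 with no filter, 22 and 51 with thinned cells, 56 and 165 in cluster 2 alone, and 35 to 47 and 89 to 105 without single libraries. The difference of genotype effects gave 22 genes, and 48 with no filter, 8 at up to 20% mitochondrial UMIs, 6 with at least 2 UMIs of *kn*, 11 with thinned cells, 35 in cluster 2 alone, and 31 to 69 without single libraries. The *D* comparison gave 0 genes, and 13 with no filter and 1 with the rule without *hui*. No filter tests more genes, thinning uses fewer UMIs and cluster 2 alone uses fewer cells. The cause of the other moves was not tested.

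Of the genes named, the 29 between genotypes had 533 refits, of which 485 kept the call, 39 lost it and 9 gained it. The 64 against the other kept cells kept it in 1044 of 1078 and the 34 against other *kn* cells in 537 of 550, with no sign changed. The 22 genes of the difference of effects kept it in 254 of 373. *CG42489* changed sign to -5.01 with at least 2 UMIs of *kn*, -4.88 without the members of cluster 23 and -4.45 without Appl- replicate 1. *Nepl15* changed to -4.86, -4.15 and -3.64 under these and to -3.47 in cluster 2 alone, and *FMRFa* to 4.41 without Control replicate 1 (lowest -11.00 without single libraries). Over all kept cells the uncalled difference of *D* changed sign to -0.032 at up to 20% mitochondrial UMIs and to -0.017 without Appl- replicate 1 (up to 0.14 without other libraries), and that of *Sox21b* to -0.058 without Control replicate 1 and -0.019 without Appl- replicate 2 (up to 0.21). With 62 members in the smallest library, small differences between genotypes were not detectable at this depth.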
